A study of Mus musculus with 4 samples.

Results

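Replication-dependent histone genes were taken as the rows whose symbol begins with Hist1h, Hist2h, Hist3h or Hist4h. They numbered 68 of the 23235 gene symbols measured, with 6 genes of the linker histone H1, 18 of H2A, 19 of H2B, 12 of H3 and 13 of H4. Levels came from RNA-seq of mouse early blastocysts collected at 96 hours and made either by fertilization in vitro (IVF) or by transfer of a somatic cell nucleus into an oocyte (SCNT). IVF joined Xist KO oocytes of 129S1/Svj background with WT CAST/EiJ sperm. In SCNT, embryonic fibroblast nuclei, heterozygous for the Xist KO, of a 129/CAST F1 cross entered oocytes of B6D2F1/J females, so the groups also differ in the strain and genotype of the oocyte donors, which cannot be told apart from the method. Per the file headers, SCNT columns also carry the name of Kdm4d, a demethylase of histone H3, whose use the labels do not mention; Kdm4d was at 0 and 0.0382 FPKM with IVF against 0.0649 and 0.117 FPKM with SCNT. A group consisted of 2 libraries, and every library pooled 6 embryos.

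Each nucleosome wraps DNA around H2A, H2B, H3 and H4, and H1 binds the linker between nucleosomes. The genes counted here lie mostly in clusters, lack introns as a rule and are expressed chiefly in S phase. Their messages end, unlike other messages, in a conserved stem-loop bound by Slbp in place of a poly(A) tail, although some of these genes also give polyadenylated messages. Low-input kits of the kind named in the labels generally start cDNA synthesis at poly(A) tails. The labels do not state how synthesis was primed, and which message forms entered the libraries was not tested. In the dividing cells of the blastocyst, new histones package each round of replicated DNA.

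The stem-loop is shown for genes that differed widely in level. A script searched the longest annotated transcript of each gene (GENCODE M21, GRCm38) for the histone stem-loop consensus of 16 bases, here in capitals with up to 7 bases on either side, written 5′ to 3′ as DNA.
Hist1h4d: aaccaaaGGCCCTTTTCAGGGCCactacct
Hist1h4m: aactaaaGGCCCTTTTCAGGGCCatc
Hist1h4n: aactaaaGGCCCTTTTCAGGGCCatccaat
Hist1h4i: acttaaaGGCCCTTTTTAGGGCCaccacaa
Hist1h1c: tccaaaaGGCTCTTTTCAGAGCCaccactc
Hist1h2ae: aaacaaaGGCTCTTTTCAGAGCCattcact
Hist1h3a: aaccaaaGGCTCTTTTCAGAGCCacacacg
Hist1h3c: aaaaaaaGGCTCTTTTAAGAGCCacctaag
The stem-loop of Hist1h4d, the most abundant member, is letter for letter that of Hist1h4m and of Hist1h4n, which was at 0 FPKM in every library. The consensus was found in 45 of the 68 models (66.2%), against 0.148% of 58797 protein-coding transcripts. One form of it occurred in 25 members of H1, H2A, H2B and H3 and another in 7 members of H4. A further 23 models held no match, among them those of Hist1h1a, Hist1h1b and Hist1h2bc; this says only that the consensus is not in those models.

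Several annotated transcripts run on past the stem-loop. In 23 of the 45 models at least 100 bases followed it, with 770 bases in Hist1h4d, 840 in Hist1h1c, 330 in Hist1h4i and 1257 in Hist2h4. Only 3 bases followed it in Hist1h4m and 31 in Hist1h4n. The letters AATAAA, a signal for cleavage and polyadenylation, stood within the last 50 bases (sense strand only) of 14 of the 68 models (20.6%), against 40.5% of protein-coding transcripts. Here and for the stem-loop, the histone share takes the longest model of each gene. The protein-coding share takes every annotated protein-coding transcript, histone genes included, so the sets are unlike. The final 30 bases of 2 members show AATAAA in capitals.
Hist1h1c: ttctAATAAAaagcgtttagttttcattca
Hist1h2ae: ccAATAAAtgggtcaatttttttcagattc
Mean FPKM had a median of 1.08 over the 23 genes with a long annotated end, 0.893 over the 22 with a short one and 0.485 over the 23 without a match. None of the 23 genes with a long end was at 0 in every library, whereas 6 of the 22 with a short end and 6 of the 23 without a match were. The classes also differed in sequence shared with other genes (the percent of 50-base stretches also found in another gene), with medians of 24.6%, 63.1% and 82.8%; its part in these levels was not tested.

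Promoters were compared because H1, H2A and H2B genes are known for type-specific elements. RefSeq (GRCm38.p6) gave a start site for 61 of the 68 genes, and the 250 bases before it were searched on both strands for 4 short motifs, which may overlap one another. TATAAA is the TATA box and CCAAT the binding sequence of factor NF-Y, while ATTTGCAT is the octamer known from H2B genes and AAACACA an element known from H1 genes. Below are the 100 bases before the start site of the most abundant H1, H2A, H3 and H4 gene, with matches to these letters in capitals. They lie at chr13:21780626-21780725 on the minus strand (Hist1h1b), chr13:23571221-23571320 on the minus strand (Hist1h2ae), chr13:23745522-23745621 on the minus strand (Hist1h3c) and chr13:23581468-23581567 on the plus strand (Hist1h4d).
Hist1h1b: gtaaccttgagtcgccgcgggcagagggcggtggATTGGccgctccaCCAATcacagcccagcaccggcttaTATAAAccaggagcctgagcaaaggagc
Hist1h2ae: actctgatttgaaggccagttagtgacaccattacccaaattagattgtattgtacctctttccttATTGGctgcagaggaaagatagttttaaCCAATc
Hist1h3c: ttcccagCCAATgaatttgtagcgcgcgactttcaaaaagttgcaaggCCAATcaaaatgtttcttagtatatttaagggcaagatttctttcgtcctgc
Hist1h4d: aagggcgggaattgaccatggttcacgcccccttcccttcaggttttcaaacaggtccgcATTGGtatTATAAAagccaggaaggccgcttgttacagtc
CCAAT was found in all 6 H1, 17 H2A and 16 H2B promoters, in 8 of 10 for H3 and in 3 of 12 for H4; the share was 82.0% over the histone genes and 33.8% over all 32851 promoters. TATAAA was found in 47.5% of the histone genes, against 12.4% of all promoters. In these shares a histone gene counted once if any of its promoters matched, while each promoter counted in the background, histone genes included. ATTTGCAT was found in 7 H2A and 7 H2B promoters and in none of the others (1.60% of all promoters). AAACACA was found in 5 of the 6 H1 promoters, in 2 of H2A and in 2 of H2B (6.25% of all promoters). H2A and H2B genes often stand back to back and share a promoter, so their counts are not independent.

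The 4 libraries gave FPKM, fragments per kilobase of transcript scaled to the mapped total, a unit inferred and not stated. FPKM summed to between 933167 and 985197 per library, and 10802 to 10923 genes reached 1 FPKM. Counting error cannot be given, since the files hold no read counts and the depth is unknown. Between 15 and 25 of the 68 histone genes were at 0 in a library, and 26 to 36 reached 1 FPKM. The libraries differed by number as well as by group: both libraries numbered 2 lay above both numbered 1 for 15 of the 31 histone genes tested (48.4%), against 24.0% of the 11039 genes tested, and below them for 1 (3.23%), Hist1h2bm, against 29.1%. On the log2(FPKM + 1) scale, library 2 differed from library 1 by a median of 0.44 in IVF and 0.20 in SCNT over the 31 histone genes. Over 295 other tested protein-coding genes without a transcript longer than 800 bases it differed by 0.33 and 0.23, and over 9346 other protein-coding genes of any length by -0.06 and -0.03. The part of transcript length in the histone values was not tested. Markers of the blastocyst were present in every library, such as Krt18 of the trophectoderm (its outer layer) at 1956 to 3979 FPKM. All 9 fibroblast markers together summed to 1.92 and 0.555 FPKM with IVF against 5.82 and 0.526 FPKM with SCNT, the highest in SCNT library 1. The 8 cumulus and granulosa cell markers summed to 0.417 to 0.720 FPKM. Twist2, Ptx3, Amh and Cyp19a1 were at 0 throughout. These marker genes are named after their values were seen.

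Histone messages in these libraries came from few genes. Hist1h4d alone held 59.6% and 74.0% of the summed FPKM of all 68 genes with IVF and 58.6% and 76.9% with SCNT. With Hist1h1b and Hist1h1a, which encode H1 subtypes, the share was 81.1% and 90.2% in IVF and 74.0% and 87.5% in SCNT. A mean of at least 10 FPKM was reached by 4 genes, those 3 and Hist1h2bc, and at least 5 FPKM by 11. In contrast, 12 genes were at 0 in every library: Hist1h2ad, Hist1h2ah, Hist1h2ao, Hist1h2ap, Hist1h2bq, Hist1h2br, Hist1h4n, Hist2h2aa1, Hist2h2aa2, Hist2h2ab, Hist2h3b and the pseudogene Hist3h2bb-ps. By type these were 7 of the 18 H2A genes, 3 of the 19 H2B genes, 1 of H3, 1 of H4 and none of the 6 H1 genes. A further 25 genes had means of 0.133 to 0.902 FPKM and were not tested, and 31 had a mean of at least 1 FPKM and were. At that limit the nearest genes were Hist1h2bb with a mean of 0.902 FPKM below it and Hist1h3d with 1.004 FPKM above it.

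**Figure D1:**
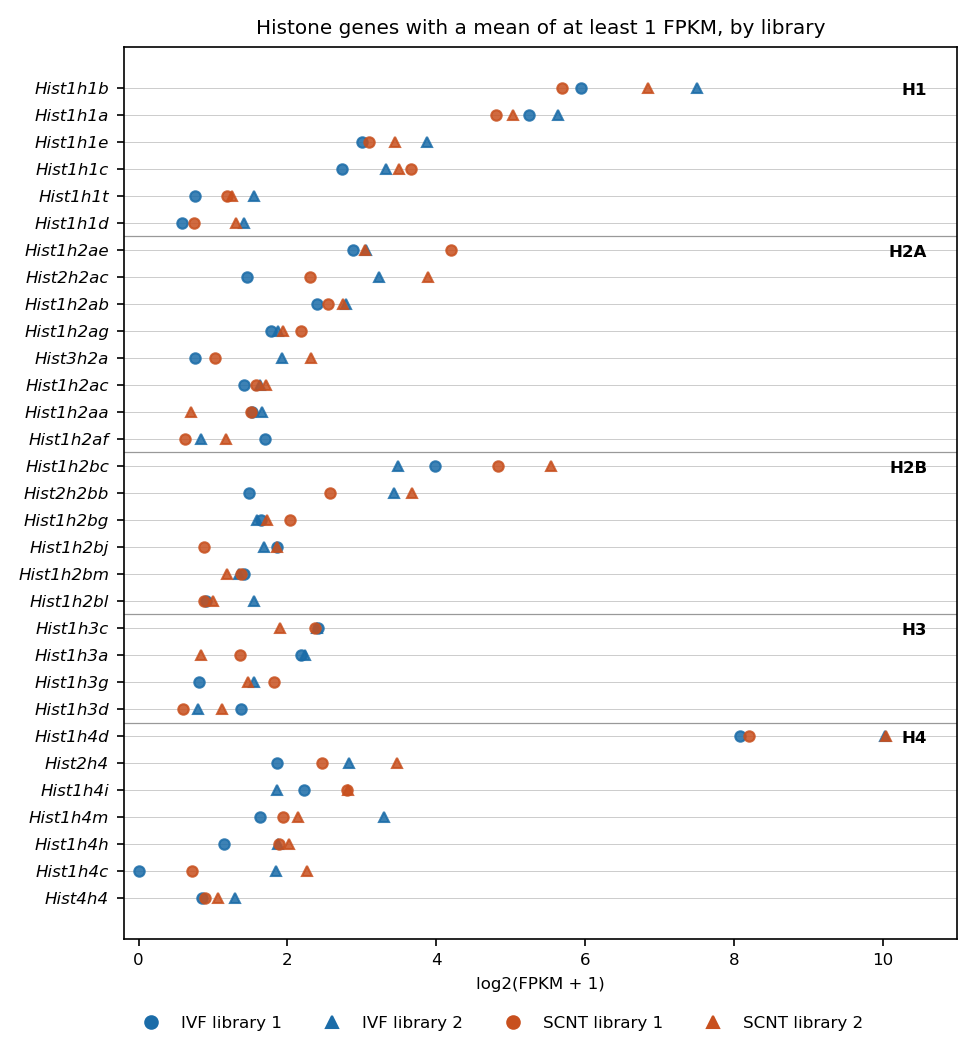
Each row is 1 of the 31 histone genes with a mean of at least 1 FPKM, grouped by histone type; the horizontal axis is log2(FPKM + 1), and circles and triangles mark libraries 1 and 2 of IVF (blue) and SCNT (orange). For Hist1h4d the triangles lie together and far above the circles, while for Hist1h2bc both SCNT points lie above both IVF points.

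Many of these genes are near-copies of one another, which matters for how reads are divided. In each gene's annotated transcripts, the share of stretches of 50 bases that also occur, on either strand, in a transcript of another gene was counted. Its median was 51.9% over the 68 genes and 92.6% over the 12 at 0 in every library. Of the 29 genes with a share of at least 60%, 11 were at 0 throughout, against 1 of the 39 below it. The share was 0% for Hist1h1a and Hist1h1b, 10.2% for Hist1h4d and 30.6% for Hist1h2bc, the 4 most abundant. It was 93.5% for Hist1h2ao, whose closest relative is Hist1h2ap, and 97.3% for Hist1h2bq with Hist1h2br. No source used here says how the authors divided shared reads, so levels of single genes with a large share, the zeros included, are uncertain. Hist2h2bb shares all its 50-base stretches with an antisense model, Gm20628, and most H2A genes overlap a predicted microRNA model on the opposite strand; unless strand was used, such reads cannot be told apart.

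**Figure D2:**
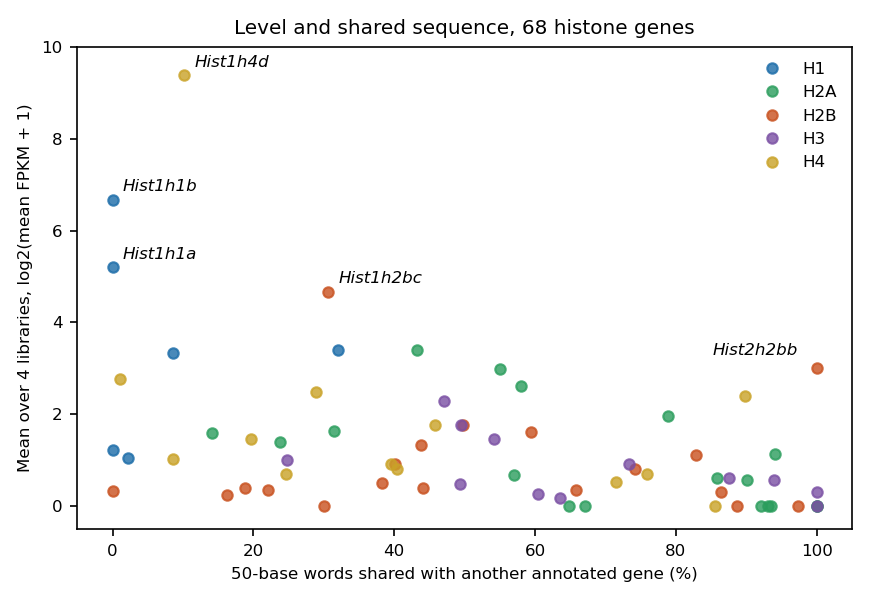
Each point is 1 of the 68 histone genes, coloured by type; the horizontal axis is the percent of its 50-base stretches found in another annotated gene and the vertical axis is log2 of its mean FPKM plus 1. The most abundant genes lie at 0% to 30.6%, and of the 12 genes at 0 all but 1 lie above 60%.

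The total of the family was alike in the groups and unlike between library numbers. FPKM summed over the 68 genes was 454 and 1416 in IVF and 502 and 1373 in SCNT, a ratio of mean SCNT to mean IVF of 1.003. Library 2 exceeded library 1 by 3.12-fold in IVF and 2.73-fold in SCNT. The ratio of SCNT to IVF therefore hinged on which libraries were used, and was 0.662 when IVF library 1 was left out and 2.06 when IVF library 2 was; it was 1.47 with SCNT library 1 and 0.537 with SCNT library 2 left out. Within a number it was 1.11 for library 1 and 0.970 for library 2. With Hist1h4d left out of the sum it was 0.953. In whole embryos, fewer cells of a type and less RNA per cell cannot be told apart.

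By type, the sum of H2B differed most between the groups and that of H4 most between library numbers. Summed H2B was 27.2 and 31.5 FPKM with IVF against 41.0 and 70.8 FPKM with SCNT (ratio 1.90), and summed H2A was 22.9 and 34.4 FPKM with IVF against 36.7 and 38.5 FPKM with SCNT (ratio 1.31). In both types each SCNT library lay above each IVF library. Summed H3 was 11.3 and 15.2 FPKM with IVF against 10.8 and 10.1 FPKM with SCNT (ratio 0.787), with both SCNT libraries lower. Summed H1 was 112 and 255 FPKM with IVF against 98.4 and 168 FPKM with SCNT (ratio 0.728), and the groups overlapped. Summed H4 was 281 and 1080 FPKM with IVF against 315 and 1085 FPKM with SCNT (ratio 1.03), again overlapping. Without Hist1h4d the H4 sum was 10.4 and 31.7 FPKM with IVF against 21.1 and 29.9 FPKM with SCNT. The separation of H2B rested on a single gene, Hist1h2bc, and without it the H2B sums overlapped between the groups. Those of H2A and H3 were narrow, and leaving out any of several genes made the sums overlap. For H2A, Hist1h2ae or Hist2h2ac did so, and for H3, Hist1h3a or Hist1h3c. These are therefore not differences of a whole type.

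**Figure D3:**
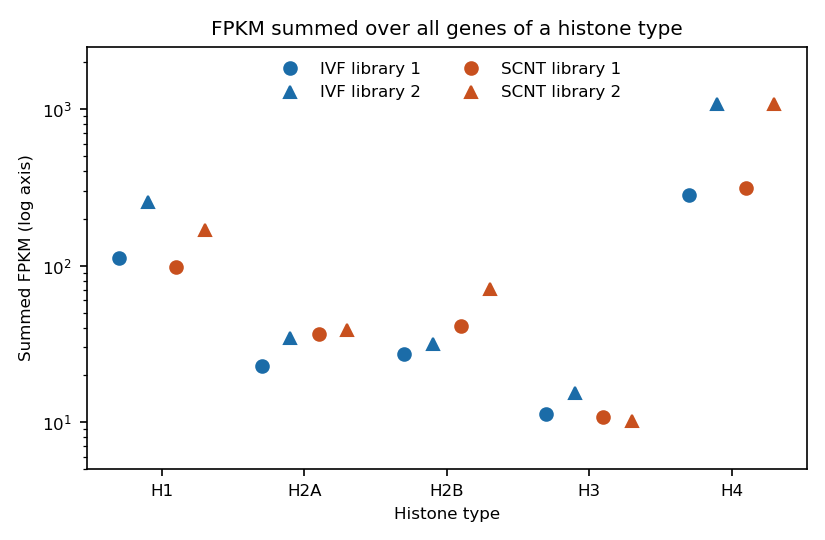
Each point is the FPKM of 1 library summed over all genes of a histone type, on a logarithmic axis; blue is IVF, orange is SCNT, circles are library 1 and triangles library 2. H4 is set apart by library number, at 281 and 315 against 1080 and 1085, and H2B by group, which rested on Hist1h2bc.

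Of the 31 tested histone genes, none was called higher and none lower in SCNT by limma at an adjusted p under 0.05 over all 11039 genes, of which 0.0725% were called higher and 0.0544% lower. At an unadjusted p under 0.05 there were 3 histone genes (9.68%), against 7.09% of all genes tested: Hist1h2bc and Hist1h4i with higher values in SCNT and Hist1h3a with lower. Both SCNT libraries lay above both IVF libraries for 6 histone genes (19.4%), against 18.3% of all genes, and below them for 4 (12.9%), against 15.1%. These shares were near the background. With library number added to the fit as a replicate block, 8 histone genes (25.8%) had an unadjusted p under 0.05, against 16.6% of all genes. They were Hist1h2bc, Hist1h4c, Hist1h4i, Hist2h2ac and Hist2h4 with higher values in SCNT and Hist1h1a, Hist1h1b and Hist1h3a with lower. Again no histone gene was called, and 20 of all 11039 genes were called in that fit. Estimates on the log2(FPKM + 1) scale, SCNT minus IVF, were above 0 for 18 and below 0 for 13, with a median of 0.06 beside 0.01 over all genes tested. The limit of 1 FPKM uses the mean over both groups. Hist1h2af, Hist1h2bl, Hist1h3d and Hist4h4, with estimates below 0, passed it only through IVF. Their means were 1.52, 1.40, 1.16 and 1.13 FPKM with IVF against 0.905, 0.916, 0.844 and 0.971 FPKM with SCNT. No tested histone gene passed it only through SCNT. These counts and medians, and those by type for H2A, H2B, H3 and H4, thus partly reflect the selection. Among the 11 histone genes with a mean of at least 5 FPKM, 8 estimates were above 0 and 3 below, with a median of 0.55. That limit uses the mean over both groups. Hist2h4, with an estimate of 0.63, passed it only through SCNT (mean 7.33 FPKM, against 4.37 FPKM with IVF), so this median partly reflects the selection. Over all 31, the median was -0.26 without IVF library 1 and 0.31 without IVF library 2. The labels name no separate parents, cultures or days for the libraries of a group; a p-value here reflects the spread among these libraries alone, which may be technical.

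**Figure D4:**
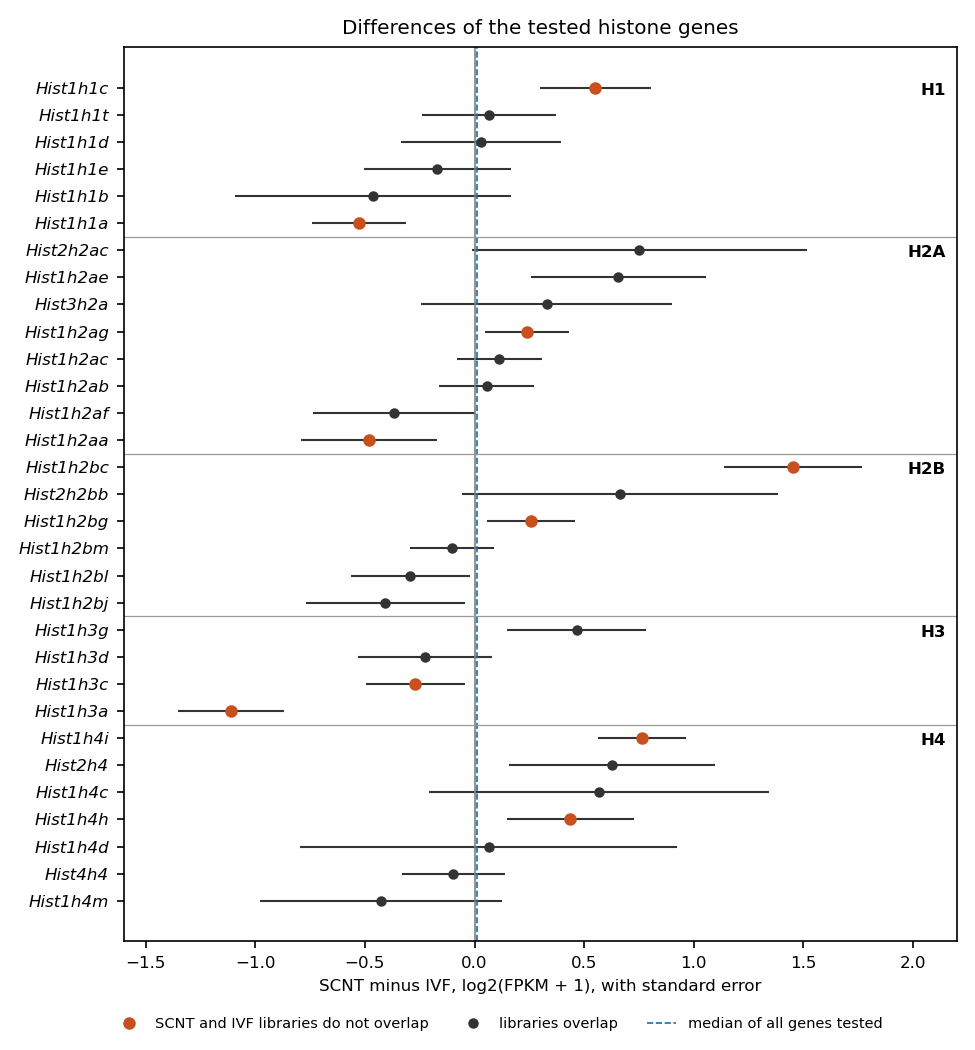
Each row is 1 of the 31 tested histone genes; the point is SCNT minus IVF on the log2(FPKM + 1) scale and the line its standard error from limma, with orange for genes whose libraries do not overlap between groups. Hist1h2bc lies farthest right at 1.45 and Hist1h3a farthest left at -1.11, and the dashed line marks the median of all genes tested.

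H2A pairs with H2B in the nucleosome. Hist1h2ae, the most abundant H2A gene, was at 6.35 and 7.29 FPKM with IVF against 17.3 and 7.25 FPKM with SCNT. A single SCNT library stood above the rest, and the other lay between the IVF values (log2 difference 0.66 ± 0.40 SE, adjusted p = 0.898 by limma). Hist2h2ac was at 1.73 and 8.39 FPKM with IVF against 3.92 and 13.8 FPKM with SCNT, high in both libraries numbered 2 and higher in SCNT within each number. Hist1h2ab varied little over the 4 libraries, at 4.25 and 5.88 FPKM with IVF against 4.82 and 5.70 FPKM with SCNT. Hist1h2ag was at 2.44 and 2.66 FPKM with IVF against 3.56 and 2.84 FPKM with SCNT, without overlap (log2 difference 0.24 ± 0.19, adjusted p = 0.968 by limma). Hist1h2aa, which encodes the germ cell form TH2A known from testis and oocytes, was at 1.88 and 2.14 FPKM with IVF against 1.84 and 0.637 FPKM with SCNT. Its groups did not overlap, with SCNT library 2 well below the others (log2 difference -0.48 ± 0.31, adjusted p = 0.902 by limma). Of the 18 H2A genes 8 were tested, the other 3 (Hist3h2a, Hist1h2ac and Hist1h2af) at 0.544 to 3.96 FPKM. Estimates were above 0 for 6 and below for 2, with a median of 0.18.

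Hist1h2bc, an H2B gene whose annotated transcript of 1156 bases is longer than a typical histone message, had the largest difference among the 31 tested genes on the log2(FPKM + 1) scale. With a pseudocount of 0.1 FPKM that of the H3 gene Hist1h3a was larger in size, at -1.62 against 1.52. It was at 14.8 and 10.2 FPKM with IVF against 27.5 and 45.4 FPKM with SCNT. Both SCNT libraries were clearly above both IVF libraries, and the ratio of means was 2.92 (log2 difference 1.45 ± 0.31, adjusted p = 0.382 by limma). The adjusted p ranged from 0.164 to 0.749 over the 13 alternatives, so it passed in none. Hist1h2bc held more of the H2B sum than any other gene in each library, and its closest relative, Hist1h2bg, was at 2.13 and 2.02 FPKM with IVF against 3.09 and 2.30 FPKM with SCNT. Hist2h2bb was at 1.81 and 9.81 FPKM with IVF against 4.96 and 11.8 FPKM with SCNT, again high in both libraries numbered 2 and higher in SCNT within each number. Hist1h2bj was at 2.62 and 2.23 FPKM with IVF against 0.832 and 2.64 FPKM with SCNT, with a single low SCNT library. Hist1h2ba, the germ cell form TH2B, was at 0.337 and 0.268 FPKM with IVF against 0 and 1.10 FPKM with SCNT, too low to be tested. Of the 19 H2B genes 6 were tested, the other 2 (Hist1h2bm and Hist1h2bl) at 0.838 to 1.92 FPKM. Estimates were above 0 for 3 and below for 3, with a median of 0.08.

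Of other cell types, summed oocyte markers were higher in both SCNT libraries, as was Hist1h2bc and as were 18.3% of all genes tested. From IVF library 1 to 2 the marker sum rose, while Hist1h2bc fell from 14.8 to 10.2 FPKM. The 9 oocyte markers summed to 25.2 and 31.2 FPKM in IVF and to 38.2 and 67.5 FPKM in SCNT. Most of this was Ooep, a gene of the oocyte's subcortical complex, at 21.1 and 29.4 FPKM with IVF against 35.0 and 66.3 FPKM with SCNT, while the defining egg coat and growth factor genes Zp1, Zp2, Zp3, Gdf9 and Bmp15 lay between 0 and 1.35 FPKM in every library. Trophectoderm markers summed to 4513 and 3701 FPKM with IVF against 6126 and 4014 FPKM with SCNT, with overlap. Of these 8 markers, Cdx2, Eomes and Elf5 were higher in both SCNT libraries, while Gata3, Krt8, Krt18, Tfap2c and Dab2 overlapped. Of the 4 primitive endoderm markers, Gata4 and Pdgfra were higher in both SCNT libraries, while Gata6 and Sox17 overlapped. Their sum was 154 and 98.1 FPKM with IVF against 127 and 98.2 FPKM with SCNT. All 6 inner cell mass and epiblast markers overlapped, summing to 278 and 326 FPKM with IVF against 275 and 333 FPKM with SCNT. The shares higher in both SCNT libraries were 37.5%, 50% and 0% in these 3 lists, against 18.3% of all genes tested. The part of these markers in the Hist1h2bc values was not tested; they are named after their values were seen.

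H3 and H4 form the tetramer at the core of the nucleosome. Hist1h3a was at 3.55 and 3.69 FPKM with IVF against 1.56 and 0.782 FPKM with SCNT. The IVF libraries nearly coincided and both SCNT libraries lay well below them, with a ratio of means of 0.324 (log2 difference -1.11 ± 0.24, adjusted p = 0.382 by limma). Its adjusted p ranged from 0.148 to 0.755 over the alternatives. The gene shares 49.5% of its 50-base stretches with other genes. Hist1h3c, the most abundant H3 gene, was at 4.31 and 4.26 FPKM with IVF against 4.16 and 2.72 FPKM with SCNT, without overlap but with a single SCNT library apart (log2 difference -0.27 ± 0.23, adjusted p = 0.982 by limma). Hist1h3g was at 0.751 and 1.94 FPKM with IVF against 2.55 and 1.77 FPKM with SCNT, and Hist1h3d at 1.59 and 0.737 FPKM with IVF against 0.511 and 1.18 FPKM with SCNT; both overlapped. Of the 12 H3 genes 4 were tested, 1 with an estimate above 0 and 3 below, with a median of -0.25.

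Hist1h4d was at 271 and 1048 FPKM with IVF against 294 and 1055 FPKM with SCNT. Libraries of the same number nearly coincided across groups, and library 2 was 3.87-fold above library 1 in IVF and 3.59-fold in SCNT, so the difference between groups of 0.06 ± 0.86 (adjusted p = 0.9996 by limma) was far inside the spread between replicates. A group difference within that spread was not detectable for this gene. Hist1h4i was at 3.66 and 2.64 FPKM with IVF against 5.97 and 6.01 FPKM with SCNT. The SCNT libraries were nearly equal and both above IVF, at 1.90 times the IVF mean (log2 difference 0.76 ± 0.20, adjusted p = 0.492 by limma). Hist1h4h was at 1.22 and 2.676 FPKM with IVF against 2.684 and 3.07 FPKM with SCNT, the lower SCNT value barely above the higher IVF value (log2 difference 0.44 ± 0.29, adjusted p = 0.915 by limma). Hist2h4 was at 2.62 and 6.12 FPKM with IVF against 4.53 and 10.1 FPKM with SCNT, high in both libraries numbered 2 and higher in SCNT within each number. Hist1h4m was at 8.83 FPKM in IVF library 2 and at 2.096 to 3.41 FPKM in the others. Hist1h4m and Hist1h4n, which was at 0, share most of their sequence. Of the 13 H4 genes 7 were tested, the other 2 being Hist4h4 at 0.808 to 1.45 FPKM and Hist1h4c, which was at 0 and 2.61 FPKM with IVF against 0.651 and 3.80 FPKM with SCNT. Estimates were above 0 for 5 and below for 2, with a median of 0.44.

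All 6 H1 genes were tested. Hist1h1b was at 60.9 and 180 FPKM with IVF against 50.4 and 114 FPKM with SCNT, high in both libraries numbered 2 and lower in SCNT within each number. Hist1h1a was at 37.1 and 48.6 FPKM with IVF against 26.9 and 31.6 FPKM with SCNT. Here both SCNT libraries were below both IVF libraries, at 0.682 times the IVF mean (log2 difference -0.53 ± 0.21, adjusted p = 0.739 by limma). Hist1h1c was at 5.63 and 8.98 FPKM with IVF against 11.6 and 10.3 FPKM with SCNT, above IVF in both (log2 difference 0.55 ± 0.25, adjusted p = 0.804 by limma). Hist1h1e was at 7.03 and 13.7 FPKM with IVF against 7.58 and 9.88 FPKM with SCNT, and it overlaps Hist1h2be on the same strand in the annotation. Hist1h1d was at 0.498 and 1.66 FPKM with IVF against 0.681 and 1.47 FPKM with SCNT, again high in libraries numbered 2. Hist1h1t, the testis form, was at 0.696 and 1.92 FPKM with IVF against 1.27 and 1.39 FPKM with SCNT. The H1 genes thus did not share a direction, with 3 estimates above 0, 3 below and a median of -0.07.

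Genes that process, regulate or use histone messages showed no difference past the threshold. Of 21 genes of 3′ end formation and control, all tested, none was called, and none had an unadjusted p under 0.05 (10 estimates above 0, 11 below, median -0.02). Slbp, the stem-loop binding protein, was at 99.1 and 126 FPKM with IVF against 113 and 119 FPKM with SCNT, the SCNT values lying between those of IVF. Npat, which activates histone gene transcription, was at 5.71 and 4.69 FPKM with IVF against 4.79 and 4.14 FPKM with SCNT. Casp8ap2, a protein of the histone locus body, was at 11.1 and 12.2 FPKM with IVF against 8.95 and 9.82 FPKM with SCNT, lower in both SCNT libraries (log2 difference -0.29 ± 0.17, adjusted p = 0.898 by limma). Zfp473, a zinc finger protein of the processing complex, was at 1.52 and 1.28 FPKM with IVF against 2.42 and 1.88 FPKM with SCNT. Lsm10, a subunit of the U7 snRNP, was at 45.5 and 53.1 FPKM with IVF against 56.6 and 65.0 FPKM with SCNT. None of 13 genes of poly(A) tail synthesis and binding was called or had an unadjusted p under 0.05, and their estimates were above 0 for 3 and below for 10 (median -0.10). Those with the smallest unadjusted p were Clp1 at -0.20, Papola (a poly(A) polymerase) at -0.19 and Nudt21 at -0.18 on the log2(FPKM + 1) scale.

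Some histone genes outside the replication-dependent symbols had far higher FPKM. The part of poly(A) tails in this gap was not tested, since the labels do not state how cDNA synthesis was primed. Of 20 listed, 16 had a row and 12 were tested. H2afz, which encodes the variant H2A.Z and whose message is polyadenylated, was at 2245 and 2417 FPKM with IVF against 2589 and 2695 FPKM with SCNT, above the sum of all 68 replication-dependent genes in each library. H3f3a and H3f3b, which encode the replacement variant H3.3, were at 202 to 456 and 452 to 845 FPKM, against 10.1 to 15.2 FPKM for all H3 genes counted above. H3f3a was also high in both libraries numbered 2 (IVF, then SCNT), at 413 and 456 FPKM against 202 and 225 FPKM. So was H3f3b, at 845 and 665 FPKM against 538 and 452 FPKM. H2afz, H3f3a and H3f3b were chosen after their values were seen. H1f0, the replacement linker histone, was at 20.2 and 19.6 FPKM with IVF against 27.8 and 27.6 FPKM with SCNT (log2 difference 0.46 ± 0.16, adjusted p = 0.634 by limma). It alone in the list had an unadjusted p under 0.05. H1foo, the oocyte linker histone, was at 2.12 and 0.824 FPKM with IVF against 0.838 and 0.920 FPKM with SCNT, and H2afy, which encodes macroH2A, differed by 0.22 ± 0.22. Over the 12 tested, 5 estimates were above 0 and 7 below (median -0.10), and none was called.

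Histone chaperones and S phase genes were tested as the neighbours of histone supply. Of 27 chaperone and assembly genes 26 were tested, with 12 estimates above 0, 14 below and a median of -0.0040; none was called, and none had an unadjusted p under 0.05. Hat1, the cytoplasmic acetyltransferase of new H4, was at 260 and 335 FPKM with IVF against 189 and 218 FPKM with SCNT. Its partner Rbbp7 was at 181 and 216 FPKM with IVF against 145 and 136 FPKM with SCNT. Asf1b, which carries H3 and H4, was at 60.8 and 59.8 FPKM with IVF against 51.3 and 43.1 FPKM with SCNT. In all 3 both SCNT libraries were the lower, with differences of -0.54 ± 0.22, -0.49 ± 0.19 and -0.35 ± 0.18 on the log2(FPKM + 1) scale (limma adjusted p = 0.747, 0.709 and 0.855). These 3 are named for the smallest unadjusted p of the list. Of the 26 tested, 4 were lower in both SCNT libraries (15.4%), against 15.1% of all genes tested. Another 2 were higher in both (7.69%), against 18.3%. Of 39 S phase and replication genes, all tested, 20 estimates were above 0 and 19 below, with a median of 0.0048; none was called, and none had an unadjusted p under 0.05. Gins1, a subunit of the replicative helicase, differed by 0.36 ± 0.18, the primase gene Prim1 by 0.35 ± 0.18 and the cyclin gene Ccne1 by -0.59 ± 0.32.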

How the data were processed

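RNA was measured in 2 IVF and 2 SCNT libraries of mouse early blastocysts, grouped by title. Direct lysis of the embryos was followed by cDNA synthesis, and cDNA from a SMARTer Ultra Low Input kit was amplified, sheared and built into libraries, per the labels' protocols. The values the authors deposited, 1 per gene symbol and library, were taken as FPKM; the unit is inferred from the Cufflinks column name and tool. The build was mm9 and the tools were Cufflinks 2.2.1, Bowtie2 2.1.0 and TopHat2 2.0.14, per the submitters' processing notes; annotation, parameters and strand use were not given in the sources used here. Short genes have unstable FPKM.

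Genes with a mean of at least 1 FPKM over the libraries (11039) were tested on log2(FPKM + 1) with limma 3.58.1 (R 4.3.3), using group as the sole term, a trended prior and Benjamini-Hochberg adjustment over all of them; the script was tested on simulated data. This scale understates changes of low genes. Named were, per histone type, the 4 highest means and the 2 largest differences without overlap, Hist1h1t, Hist1h2aa and Hist1h2ba, and per pathway list the 3 smallest p, with Slbp, Npat and Casp8ap2. Members and lists were chosen with earlier results of these data known. RefSeq matched 67 of 68 symbols; its coordinates are of GRCm38.p6, not the authors' build. In all, 13 alternatives of the fit were tried.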

Additional observations from a re-analysis of the deposited data

How the results depend on the processing

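Over 13 alternatives of the fit (pseudocounts of 0.1 and 5, no filter and a filter at 5 FPKM, median and quantile scaling, genes of microRNA and small nucleolar RNA excluded, a robust prior, a replicate block and each library left out in turn), the counts of histone genes called higher and lower remained 0 and 0. The median over histone genes was 0.55 with the filter at 5 FPKM, where 11 genes were tested, Hist2h4 only through its SCNT mean. It ranged from -0.26 to 0.31 with a library left out. The ratio of summed FPKM ranged from 0.54 to 2.06 with a library left out; it was 0.975 and 0.987 under the scalings tried. Of 505 values of the 40 named tested genes, 487 kept direction and call, none crossed the threshold, and 18, from 12 genes, changed sign, each with a library left out. The ranges of these differences were Hist1h1b (-1.24 to 0.31), Hist1h1e (-0.61 to 0.27), Hist2h2ac (-0.14 to 1.64), Hist1h2ab (-0.14 to 0.25), Hist2h2bb (-0.31 to 1.64), Hist1h2bj (-0.90 to 0.089), Hist1h3d (-0.51 to 0.062), Hist1h4d (-0.91 to 1.04), Hist1h4m (-1.26 to 0.41), Hist1h1t (-0.33 to 0.46), Slbp (-0.12 to 0.22) and H1foo (-0.73 to 0.043). With a replicate block the calls were again 0 and 0 for histone genes, with 20 called among all 11039 genes, and the median was 0.06. In that fit 5 histone genes with higher and 3 with lower estimates had an unadjusted p under 0.05 (25.8% of 31, against 16.6% of all genes). Libraries of the same number deviated together with a correlation of 0.31 across all genes tested and 0.57 across the 31 histone genes; genes are not independent replicates, and the labels do not say that a number marks a shared day or batch. The depth is unknown, so most of the 37 untested genes cannot be compared.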
